A study of Mus musculus with 4 samples.

Results

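CD4 and CD8, the coreceptors of T cells, and the factors that set or mark the 2 T cell lineages were followed here as 8 genes: Cd8a, Cd8b1, Cd4, Cd40lg, Zbtb7b, Runx3, Runx1 and Gata3. They were taken by symbol from the deposited table, where each has 1 row, and make up 8 of its 14226 rows. The libraries come from RNA of splenocytes, all cells of the spleen together, of C57BL/6N mice. The 2 wild-type libraries carry the genotype wt and the 2 vcS5 libraries the genotype vcS5 +/T. The series title names an activating STAT5 mutation and peripheral T cell lymphoma, and the file headers call the vcS5 samples line1. Age, sex, the promoter of the transgene and the number of founder lines are not given in the sources used here.

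Values are FPKM, fragments scaled by transcript length and library size, so levels of different genes can be set side by side per length. The absolute depth is unknown, and median FPKM lay between 12.2 and 12.6 in the 4 libraries. The Stat5a row stood at 13.9 and 17.0 FPKM in wild type against 105 and 123 FPKM in vcS5. Whether that row holds transgene reads beside those of the endogenous gene was not tested. Lymphocyte markers of the spleen were present in all 4 libraries, with Ms4a1 of B cells at 170.5 to 517 FPKM and Cd3e of T cells at 67.0 to 189 FPKM. Wild-type replicate 1 stood apart in neutrophil genes, with a summed level of 6463 FPKM over 12 markers against 1016 to 1960 FPKM in the other libraries.

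CD8 and CD4 bind outside the peptide groove of MHC class I and class II molecules and bring the kinase LCK to the T cell receptor. CD8 is a pair of chains, usually alpha with beta on T cells, encoded by the neighbouring genes Cd8a and Cd8b1. ThPOK, the product of Zbtb7b, holds cells in the CD4 lineage, while RUNX3 silences Cd4 and Zbtb7b in CD8 cells. GATA3 acts upstream of Zbtb7b in the thymus and is kept in mature T cells, RUNX1 represses Cd4 in thymocytes, and CD40 ligand is the signal by which activated CD4 cells help B cells.

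Of the 8 genes, Cd8a, Cd8b1 and Gata3 rose in vcS5 and Cd4, Zbtb7b and Cd40lg fell. That is 3 higher, where 4.59% of all rows were higher, and 3 lower, where 4.13% were lower, by limma at an adjusted p under 0.05. Runx3 and Runx1 did not pass. By the q-value in the authors' deposited table the counts were also 3 higher and 3 lower, against 5.31% and 6.14% of rows. Both vcS5 libraries lay above both wild-type libraries for 4 of the genes and below them for the other 4, an ordering met by 26.9% and 27.5% of rows. Leaving out vcS5 replicate 2 left no call among the 8 by limma, where 3 were higher and 3 lower at an unadjusted p under 0.05, and calls lost without a library are given beside each gene.

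**Figure D1:**
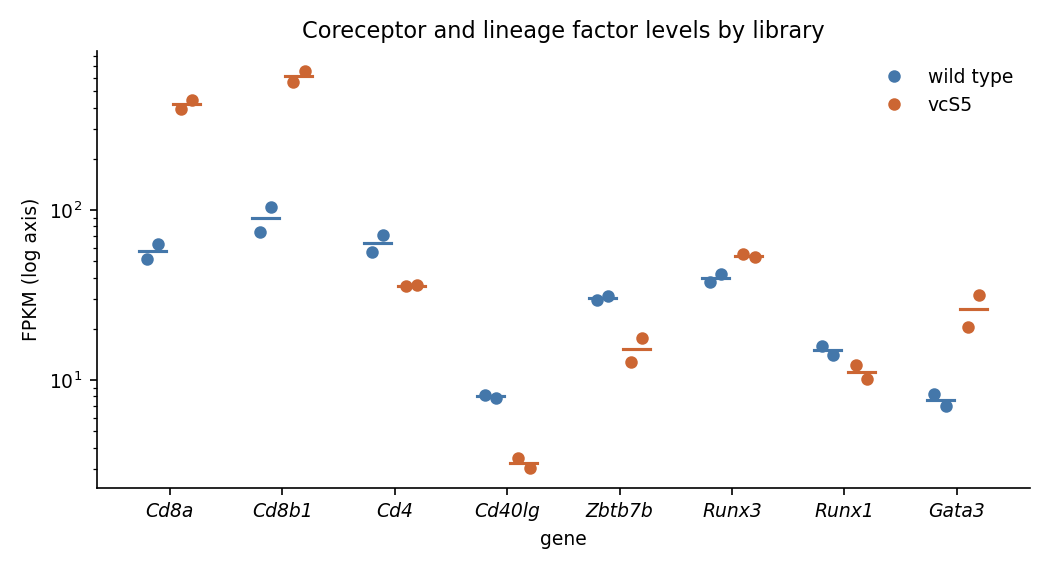
FPKM on a log axis for the 8 genes, 1 point per library (2 wild type, 2 vcS5), with a short line at the mean of each group. Cd8a and Cd8b1 stand at 391 to 660 FPKM in vcS5 against 51.1 to 104 FPKM in wild type, while the Cd4, Cd40lg and Zbtb7b points of vcS5 lie below those of wild type.

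Both chains of CD8 rose by about the same factor. Cd8a (mm10 chromosome 6, 71373427 to 71379173, plus strand) had 51.1 and 62.9 FPKM in wild type, with 391 and 445 FPKM in vcS5. The groups are far apart, and the mean went from rank 2018 to rank 245 among the 14226 rows ordered by level. The fold between group means was 7.33, and on the log2(FPKM + 1) scale Cd8a rose by 2.86 (SE 0.174, limma adjusted p = 0.00259). Cd8b1 (chromosome 6, 71322788 to 71337494, plus strand), the beta chain gene, had 74.2 and 104 FPKM in the wild-type pair against 566 and 660 FPKM in vcS5. Its groups do not overlap either, and its mean moved from rank 1193 to rank 185. The fold was 6.87, a log2 rise of 2.78 (SE 0.219, limma adjusted p = 0.00533). Without vcS5 replicate 2 the adjusted p by limma was 0.057 for Cd8a and 0.0838 for Cd8b1, and without vcS5 replicate 1 that of Cd8b1 was 0.0673. In bulk splenocytes more cells of a type and more RNA per cell cannot be told apart.

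The ratio of the 2 chains overlapped between the groups. Cd8a to Cd8b1 was 0.689 and 0.604 in wild type against 0.691 and 0.674 in vcS5. The difference of the log2 ratios was 0.08, beside SDs of 0.135 and 0.024 within the groups (n = 2 each, exact two-sided permutation p = 0.667). With 2 libraries against 2, no permutation p below 0.333 is possible, so none of the ratio tests here can pass 0.05.

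Unannotated transcripts at the Cd8a locus were also higher in vcS5. The genes lie 35.9 kilobases apart, and the Cd8a row spans a locus from 71352956 to 71379171 that it shares with 2 rows without a gene identifier or strand, looked up after their values were seen. The first had 4.86 and 5.25 FPKM in wild type, with 46.6 and 53.6 FPKM in vcS5. The second had 4.05 and 4.50 FPKM in the wild-type pair against 38.2 and 41.7 FPKM in vcS5. Both rose, by 3.07 and 2.96 on the log2 scale (adjusted p = 0.00121 each by limma), and both kept the call with any 1 library left out, with adjusted p-values from 0.0176 to 0.0363. GENCODE annotates 2 long noncoding RNAs in that interval, Gm44174 on the plus strand (71353035 to 71373284) and Gm44175 on the minus strand (71354351 to 71360829), neither of which touches a Cd8a exon. Both end before the start of Cd8a at 71373427. Which of them, if either, the rows hold is not given, nor where in the locus the rows lie. Whether the rows also hold reads of Cd8a precursor RNA therefore cannot be told.

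The promoter window of Cd8a is shown because this gene changed most among the 8. RefSeq on GRCm38.p6 gave windows of 300 bases (250 before and 50 after a start site) for 5 of the 8 genes, with none matched for Cd8b1, Cd4 and Cd40lg. Windows were searched on both strands for TGTGGT, bound by RUNX factors, AGATAA, bound by GATA factors, and TTCNNNGAA, bound by STAT factors. The 3 motifs do not overlap in any window of these genes. The share of all 32851 windows with a match was 16.8% for the RUNX, 11.2% for the GATA and 8.3% for the STAT motif. The Cd8a window (chr6:71373177-71373476, plus strand) held none of the 3 in this spelling:

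Cd8a: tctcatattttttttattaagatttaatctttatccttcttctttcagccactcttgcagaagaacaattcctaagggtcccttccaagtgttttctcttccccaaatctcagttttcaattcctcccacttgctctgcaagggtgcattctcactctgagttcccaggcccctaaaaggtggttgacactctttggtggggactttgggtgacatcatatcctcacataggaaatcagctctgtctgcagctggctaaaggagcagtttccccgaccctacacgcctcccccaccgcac

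Cd4, the coreceptor for MHC class II, fell. Cd4 (chromosome 6, 124864692 to 124888221, minus strand) had 56.8 and 71.0 FPKM in wild type, with 35.6 and 36.0 FPKM in vcS5. The vcS5 libraries lie close together, below both wild-type libraries. The wild-type mean was 1.79-fold that of vcS5 (log2 change -0.81, SE 0.16, limma adjusted p = 0.0445). The call was lost without any 1 library, with adjusted p-values from 0.101 (without wild-type replicate 1) to 0.199 (without vcS5 replicate 2), and in the fit without the variance trend (0.0582).

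Cd40lg (chromosome X, 57212143 to 57224042, plus strand), the CD40 ligand gene, had 8.19 and 7.86 FPKM in the wild-type pair against 3.49 and 3.03 FPKM in vcS5. Both groups are tight and well separated, at the lowest levels of the 8 genes in vcS5. The wild-type mean was 2.46-fold that of vcS5 (log2 change -1.08, SE 0.157, limma adjusted p = 0.0218). Without any 1 library the adjusted p ran from 0.0943 (without vcS5 replicate 1) to 0.136 (without vcS5 replicate 2). Cd40lg to Cd4 was 0.144 and 0.111 in wild type against 0.0980 and 0.0844 in vcS5, a difference of -0.47 in log2 ratio with no overlap (exact two-sided permutation p = 0.333). It was -0.28 without wild-type replicate 1 and -0.27 with a pseudocount of 1 added to both genes.

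Cd8a and Cd4 stood at like levels in wild type, and Cd8a stood far above Cd4 in vcS5. Cd8a to Cd4 was 0.900 and 0.886 in wild type against 10.98 and 12.4 in vcS5. The log2 ratio was -0.16 ± 0.016 in wild type and 3.54 ± 0.122 in vcS5 (SD, n = 2 each), a 13.1-fold higher ratio, far beyond the spread of either group (exact two-sided permutation p = 0.333, the smallest possible). The ratio is free of the scaling of each library. Cd8b1 to Cd4 gave the same picture, with 1.31 and 1.47 in wild type against 15.9 and 18.4 in vcS5. Leaving out any 1 library moved the log2 difference of Cd8a to Cd4 only between 3.62 and 3.79.

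**Figure D2:**
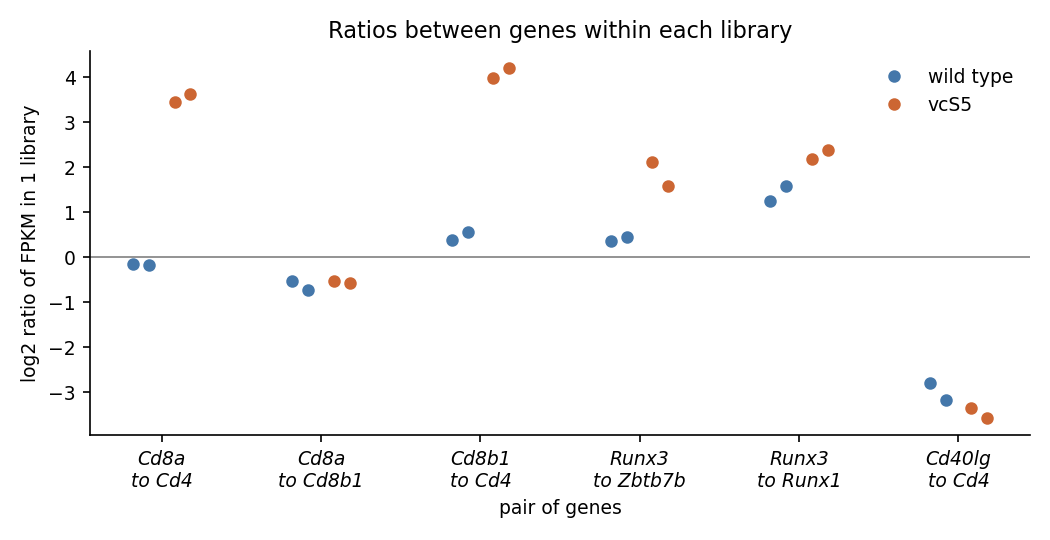
Log2 ratio of FPKM between 2 genes of the same library, 1 point per library, wild type and vcS5 side by side. Cd8a to Cd4 and Cd8b1 to Cd4 are near 0 in wild type and between 3.456 and 4.198 in vcS5, whereas Cd8a to Cd8b1 overlaps between the groups.

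Zbtb7b, the gene of the CD4 lineage factor ThPOK, fell. Zbtb7b (chromosome 3, 89377644 to 89394776, minus strand) had 29.6 and 31.0 FPKM in wild type, with 12.8 and 17.6 FPKM in vcS5. The vcS5 libraries differ more from each other than the wild-type libraries do, and still lie below them. The wild-type mean was 2.00-fold that of vcS5 (log2 change -0.97, SE 0.186, limma adjusted p = 0.0412). Without any 1 library the adjusted p ran from 0.114 (without vcS5 replicate 2) to 0.17 (without wild-type replicate 2), and without the variance trend it was 0.0528.

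RefSeq lists 2 start sites for Zbtb7b, and only the window of the downstream one (chr3:89387622-89387921, minus strand) held a RUNX match, which begins 89 bases before the start site. It is shown because RUNX factors are known repressors of this gene. The match is in capitals and is a description of the letters only:

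Zbtb7b: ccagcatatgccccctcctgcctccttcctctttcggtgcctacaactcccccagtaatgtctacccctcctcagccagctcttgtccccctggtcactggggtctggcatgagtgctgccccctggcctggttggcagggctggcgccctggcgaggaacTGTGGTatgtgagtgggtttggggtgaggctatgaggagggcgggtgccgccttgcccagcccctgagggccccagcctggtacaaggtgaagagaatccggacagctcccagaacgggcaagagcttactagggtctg

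Runx3, the CD8 lineage factor, was higher in both vcS5 libraries without passing the test. Runx3 (chromosome 4, 135120652 to 135177990, plus strand) had 37.8 and 42.1 FPKM in the wild-type pair against 55.0 and 52.5 FPKM in vcS5. The groups do not overlap, and the step is small beside that of the CD8 chains. The fold was 1.35 (log2 change 0.42, SE 0.136, limma adjusted p = 0.136), with a 95% interval of 0.08 to 0.77 that is not adjusted over rows. With each library left out in turn the log2 change ran from 0.35 to 0.496, and it did not pass in any of these fits. Runx3 to Zbtb7b was 1.28 and 1.358 in wild type against 4.31 and 2.99 in vcS5, a 2.72-fold higher ratio (exact two-sided permutation p = 0.333).

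Runx1 (chromosome 16, 92601466 to 92826149, minus strand) had 15.8 and 14.0 FPKM in wild type, with 12.2 and 10.1 FPKM in vcS5. Both vcS5 values are the lower ones, though the groups come close to each other. Its log2 change was -0.39 (SE 0.161, adjusted p = 0.217 by limma), with a 95% interval of -0.80 to 0.02. Its range with each library left out was -0.51 to -0.265, also without a call. Runx3 to Runx1 was 2.39 and 3.01 in wild type against 4.51 and 5.18 in vcS5 (exact two-sided permutation p = 0.333).

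The third family member, Runx2, from the list of lineage regulators, rose from 6.32 and 6.00 FPKM to 21.2 and 17.3 FPKM (log2 change 1.495, adjusted p = 0.0113 by limma). Runx3 made up 63.0% and 67.8% of the summed Runx FPKM in wild type and 62.2% and 65.7% in vcS5, so its share overlaps between the groups. The share of Runx1 went from 26.4% and 22.5% to 13.8% and 12.7%, and that of Runx2 from 10.5% and 9.67% to 24.0% and 21.6%. Cbfb, the partner chain of all RUNX proteins, overlapped between the groups, at 80.0 and 63.2 FPKM in the wild-type pair against 84.5 and 64.1 FPKM in vcS5 (log2 change 0.05, 95% interval -0.47 to 0.57).

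Runx3 and Runx1 each have an upstream and a downstream promoter, and the upstream windows are shown because both hold a pair of RUNX matches. The table has 1 value per gene and cannot divide reads between the promoters. The matches, in capitals, begin 134 and 126 bases before the start site in Runx3 (chr4:135120395-135120694, plus strand) and 29 and 37 bases after it in Runx1 (chr16:92826025-92826324, minus strand). They lie in a run of 18 identical bases, the longest that these windows share, while the downstream windows of both genes held no match of the 3 motifs:

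Runx3: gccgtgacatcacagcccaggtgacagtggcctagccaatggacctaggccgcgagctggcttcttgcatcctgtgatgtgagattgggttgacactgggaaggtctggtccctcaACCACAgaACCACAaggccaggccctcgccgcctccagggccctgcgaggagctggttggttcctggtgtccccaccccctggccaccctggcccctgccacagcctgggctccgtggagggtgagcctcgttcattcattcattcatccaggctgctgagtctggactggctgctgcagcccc
Runx1: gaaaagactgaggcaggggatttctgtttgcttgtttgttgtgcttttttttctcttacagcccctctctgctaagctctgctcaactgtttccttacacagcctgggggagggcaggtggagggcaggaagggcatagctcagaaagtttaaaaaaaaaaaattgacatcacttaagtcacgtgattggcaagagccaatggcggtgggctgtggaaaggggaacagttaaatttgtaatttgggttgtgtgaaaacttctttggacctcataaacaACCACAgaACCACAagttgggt

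Gata3, which encodes a factor of T cell development and of type 2 immunity, rose. Gata3 (chromosome 2, 9857078 to 9890034, minus strand) had 8.26 and 7.01 FPKM in wild type, with 20.6 and 31.6 FPKM in vcS5. All vcS5 values are above wild type, but those libraries differ by more than the whole wild-type level. The fold was 3.42 (log2 change 1.62, SE 0.235, limma adjusted p = 0.0218). Without any 1 library the adjusted p ran from 0.0688 (without vcS5 replicate 1) to 0.116 (without vcS5 replicate 2). The Gata3 row also carries the identifier of 9230102O04Rik, an overlapping gene on the same strand, so reads of the pair are merged. The Gata3 window (chr2:9878551-9878850, minus strand) held none of the 3 motifs.

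Among the measured genes of type 2 cells that GATA3 is known to drive, none was called. Of 10 on the list 4 had a row, and 0 passed by limma, 0 had an unadjusted p under 0.05 and 0 passed by q-value in the authors' deposited table. Maf, a factor of helper T cells, was at 11.98 and 8.10 FPKM in the wild-type pair against 9.38 and 4.80 FPKM in vcS5, and Ccr4, a chemokine receptor, at 2.83 and 2.29 FPKM and at 2.27 and 1.17 FPKM. Il4, Il5 and Il13 have no row in the table used here.

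Pan T cell markers set the scale for these changes. Of 18 markers 12 rose, 1 fell and 5 did not pass, with a median log2 change of 1.27 where the median of all rows was 0.00. Cd3d and Cd3e, chains of the T cell receptor complex, rose by 1.66 and 1.45, and Thy1, a surface marker of T cells, rose by 2.15. The 1 marker that fell, Trat1, a receptor-associated adaptor named after its value was seen, went from 8.71 and 13.3 FPKM to 3.38 and 3.81 FPKM.

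Measured against the mean log2 level of these 18 markers in the same library, the 8 genes spread out. That mean itself rose by 1.16 from wild type to vcS5. A gene of unchanged level thus lies 1.16 lower in vcS5 on this scale, without overlap of the groups. How many of all rows do so was not counted. Cd8a lay 0.22 and 0.14 above that mean in wild type and 1.90 and 1.85 above it in vcS5. Cd4 lay 0.37 and 0.32 above it in wild type and 1.52 and 1.74 below it in vcS5, a difference of -1.97. The difference was -2.13 for Zbtb7b, -2.24 for Cd40lg, -1.55 for Runx1 and -0.74 for Runx3, none with overlapping groups (exact two-sided permutation p = 0.333 each). Runx3, higher in vcS5 by its own level, was thus lower relative to the pan T cell markers, though by less than a gene of unchanged level. Gata3 differed by 0.46, and its groups overlap on this scale (exact two-sided permutation p = 0.667). Leaving out wild-type replicate 2 brought that difference to 0.17, leaving out wild-type replicate 1 to 0.75, and relative to Cd3e alone it was 0.18.

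**Figure D3:**
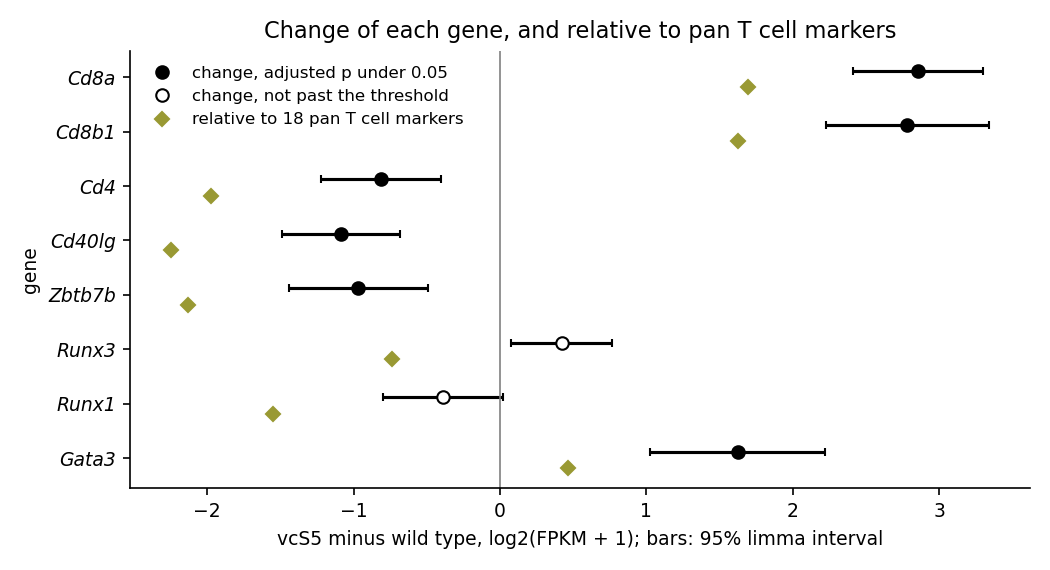
Difference of vcS5 from wild type in log2(FPKM + 1) for each gene (circles, with the 95% limma interval, filled where the adjusted p is under 0.05) and the same difference relative to the mean of 18 pan T cell markers (diamonds). Cd8a and Cd8b1 stay above 0 on both scales, Runx3 changes side from 0.42 to -0.74, and Gata3 shrinks from 1.62 to 0.46. The marker mean itself rose by 1.16, so the diamond of a gene of unchanged level would lie 1.16 below 0.

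Genes known to be expressed in CD8 T cells rose in most cases. Of 10 CD8 T cell associated genes 8 rose and 2 did not pass, with a median log2 change of 1.99. Ccl5, a chemokine, rose by 3.26, Nkg7, a cytotoxic granule protein, by 2.38, Eomes, a T-box factor, by 2.20 and Cxcr3, a chemokine receptor, by 1.94. Of 14 measured CD4 helper and regulatory T cell genes 2 rose, 1 fell and 11 did not pass, with a median of -0.37. Tnfsf8, the CD30 ligand, rose from 11.8 and 7.53 FPKM to 50.5 and 54.5 FPKM, and Il2ra, an interleukin 2 receptor chain, from 3.73 and 4.66 FPKM to 14.1 and 14.0 FPKM. Ccr6, a chemokine receptor also found on B cells, fell from 54.1 and 48.5 FPKM to 24.4 and 21.3 FPKM, and Foxp3, the factor of regulatory T cells, was at 5.96 and 7.98 FPKM in wild type, with 5.65 and 4.55 FPKM in vcS5 (adjusted p = 0.319 by limma). The difference between these 2 lists was not tested.

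Other regulators of the CD4 and CD8 choice moved in part. Of 27 on the list 8 rose, 1 fell and 18 did not pass, with a median of 0.06. Il7r, the interleukin 7 receptor that sustains CD8 commitment, rose by 2.19, Themis, a T cell receptor adaptor of thymic selection, by 1.95 and Bcl11b, a T cell identity factor, by 1.24. Id3, an inhibitor of E proteins, fell by 0.80 on the log2 scale. The thymic factor Tox overlapped between the groups, at 7.13 and 6.23 FPKM in the wild-type pair against 7.72 and 4.85 FPKM in vcS5. Of 14 signalling partners of the coreceptors 8 rose and 6 did not pass, with a median of 1.16, with rises of Themis, Cd3e and Ptpn22, a phosphatase that rose by 1.26. Lck, the kinase that both coreceptors carry, was at 148 and 226 FPKM in wild type, with 409 and 637 FPKM in vcS5, which did not pass (log2 change 1.48, SE 0.311, limma adjusted p = 0.0522).

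Of 6 MHC class I genes, the ligands of CD8, only H2-Q7 rose, from 320 and 316 FPKM to 580 and 682 FPKM, and the other 5 did not pass, with a median of 0.25. These genes are alike in sequence and can share reads. Of 9 measured MHC class II genes, whose products CD4 binds, 8 fell and 1 did not pass, with a median of -1.32. Ciita, the class II transactivator, fell by 1.14 on the log2 scale, H2-DMb2 by 1.37, H2-Ob by 1.17 and H2-Ab1, a chain of the class II molecule itself, by 1.34. The H2-DMb2 row also carries the identifier of another gene, so reads of the pair are merged. Cd40, the receptor of CD40 ligand on B cells, fell from 70.1 and 92.1 FPKM to 38.0 and 33.6 FPKM (log2 change -1.15, adjusted p = 0.0271 by limma), the 1 of 6 genes of its list to pass.

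**Figure D4:**
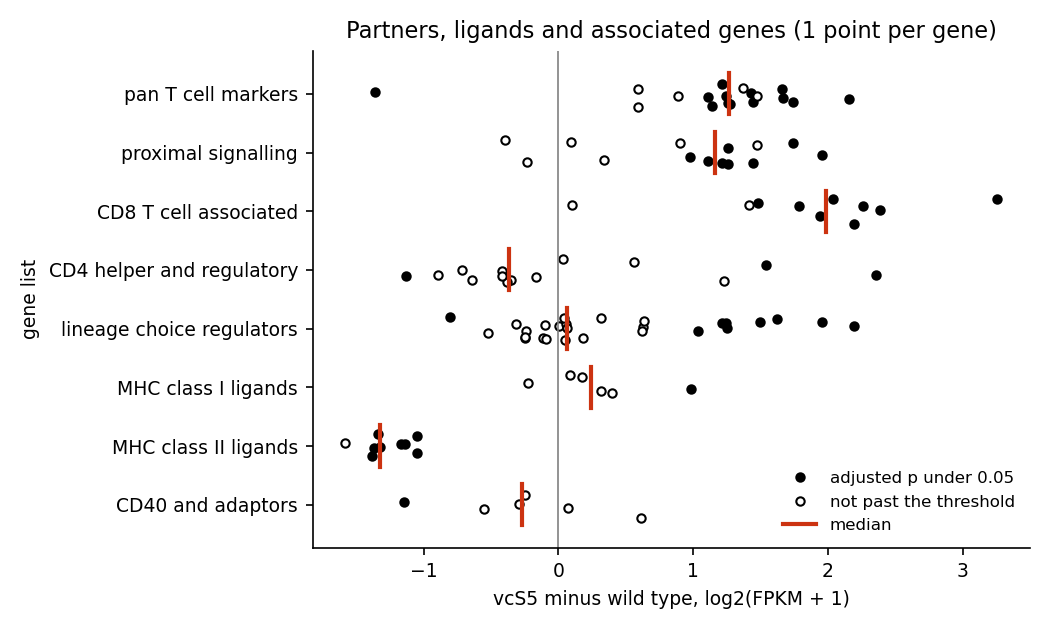
Log2 change of each measured gene in 8 lists of partners, ligands and associated genes (filled where the adjusted p is under 0.05, red bar at the list median). The median is 1.99 for CD8 T cell associated genes and -1.32 for MHC class II genes, and -0.37 for helper and regulatory T cell genes.

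These list calls rest on all 4 libraries. Of 68 genes called in any of the lists used here, 13 and 19 kept the call when wild-type replicate 1 or 2 was left out, and 6 and 3 when vcS5 replicate 1 or 2 was. In that order of libraries, 4, 5, 2 and 0 of the 8 calls among CD8 T cell associated genes were kept, 0, 4, 0 and 0 of the 13 among pan T cell markers, and 0 each time of the 8 among MHC class II genes, of which all 9 had an unadjusted p under 0.05 with every library in. The median of the CD8 T cell associated genes ran from 1.90 to 2.12, that of the pan T cell markers from 1.13 to 1.44, that of the helper and regulatory genes from -0.57 to -0.09, and that of the lineage regulators from 0.10 to 0.25, so the latter pair moved by more than 1.5 times from -0.37 and 0.06 with all libraries.

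Several members are also made by cells other than T cells, whose markers were read in the same libraries. Dendritic cells can carry Cd8a or Cd4, and of 12 of their markers 3 fell and 9 did not pass, with a summed level of 145 to 151 FPKM in wild type and 111 to 136 FPKM in vcS5. At an unadjusted p under 0.05 by limma 1 of these markers was higher and 6 were lower. The higher one, Ly75, went from 9.67 and 9.09 FPKM in wild type to 15.3 and 13.6 FPKM in vcS5. Xcr1 and Batf3, markers of the CD8 dendritic cell, were at 2.25 to 5.50 FPKM in all libraries. Of 10 natural killer cell markers, which share Eomes, Nkg7, Prf1 and Tbx21 with the CD8 list, 6 rose and 2 fell. Klra8, not on the CD8 list, rose from 12.1 and 11.8 FPKM in wild type to 80.8 and 68.55 FPKM in vcS5. Klrd1, also outside that list, rose from 59.1 and 48.5 FPKM to 133 and 139 FPKM. Ncr1 fell from 13.7 and 15.1 FPKM to 0.64 and 0.78 FPKM. The summed level of the 10 markers was 222 to 245 FPKM in wild type and 771 to 791 FPKM in vcS5.

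Of 10 B cell markers 9 fell, with sums of 3326 to 4046 FPKM in wild type and 1346 to 1403 FPKM in vcS5. Monocyte and macrophage markers had 3 of 13 higher, with sums of 358 to 462 FPKM and 709 to 828 FPKM, and the rises were those of Ly6c2, Ccr2 and Cx3cr1, which T cells can also express. The Ly6c2 row by itself went from 127 and 78.8 FPKM to 483 and 525 FPKM. That row also carries the identifier of another gene, so reads of the pair are merged. The median of the list was -0.41, the other 10 markers did not pass, and 3 were lower at an unadjusted p under 0.05 and 2 by q-value in the authors' deposited table. Of 12 neutrophil markers 1 passed by limma, Csf3r, which fell, while 11 were lower at an unadjusted p under 0.05 and 11 by q-value in the authors' deposited table, with a median log2 change of -1.60. Markers of platelets (4 measured) and of progenitors (5 measured), cells that use Runx1, had 0 calls by limma, with 2 each lower at an unadjusted p under 0.05, and 2 and 4 lower by q-value in the authors' deposited table. Of 5 measured markers of innate lymphoid cells, which use Gata3, Il7r and Id2 rose, both also expressed by T cells, while Il1rl1 was at 0.97 to 1.78 FPKM in all libraries. What these cells add to the changes of the 8 genes was not tested.

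By likeness of pattern, the row nearest to Cd8a was that of Stat5a, which may hold transgene reads. Among 8172 rows of single genes with a mean of at least 5 FPKM, the Euclidean distance over the 4 libraries between log2 values centred on their row means was 0.0543 for Stat5a and 0.155 for Cd8b1. Fam71b, Il18r1 and Lpin1 followed, at 0.156, 0.306 and 0.307. For Cd4 the nearest were Hvcn1 at 0.0529, Sema4b at 0.0546, Birc3 at 0.0547, Cerk at 0.0705 and Rin3 at 0.0772. Zbtb7b and Cd40lg stood at rank 382 and 423 from Cd4, with distances of 0.381 and 0.397. Fam71b had 0.61 and 0.97 FPKM in wild type against 11.5 and 11.3 FPKM in vcS5, so it met the minimum mean only through vcS5, and its distance on the log2(FPKM + 1) scale depends on the pseudocount. With 4 libraries in 2 groups, any gene of like change on that scale and like replicate order comes close, and these distances are descriptions.

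**Figure D5:**
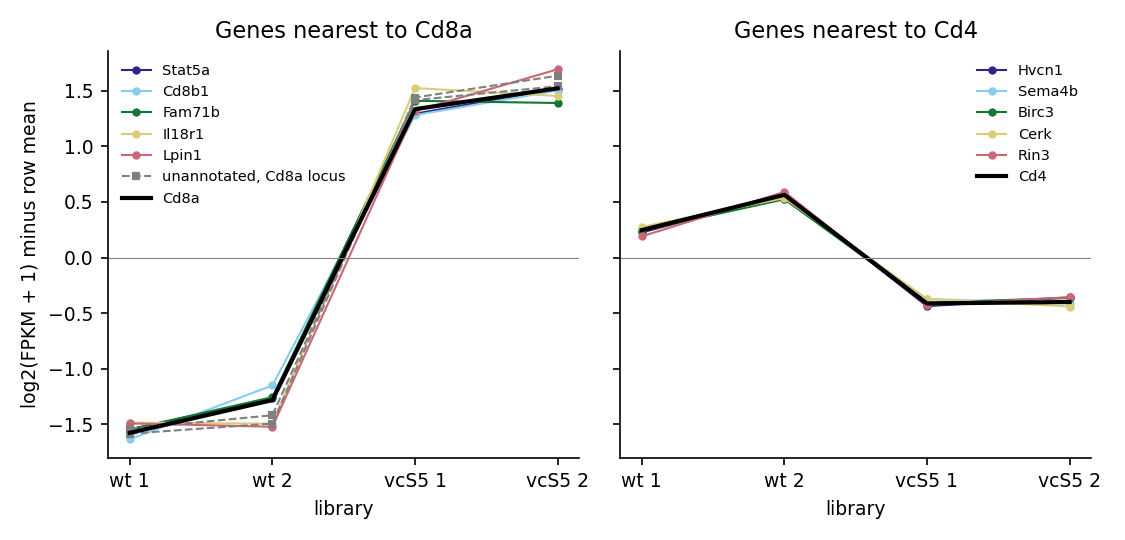
Log2(FPKM + 1) minus the row mean in each library for Cd8a (left) and Cd4 (right), in black, with their 5 nearest genes and, in grey, the 2 unannotated rows of the Cd8a locus; a line joins the values of 1 row. Stat5a and Cd8b1 run along Cd8a at distances of 0.0543 and 0.155, and the 5 genes around Cd4 lie within 0.0772 of it.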

How the data were processed

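RNA of 4 splenocyte libraries (2 wild type, 2 vcS5) was sequenced as 50 bp single-end reads from TruSeq v2 libraries, which do not mark strand, per the labels' protocols and series design. The submitters' processing notes list the build mm10 and the tools TopHat2 2.0.9 and Bowtie2 2.1.0 beside Cuffdiff 2.1.1 and Cufflinks, with no settings. The authors deposited an FPKM value per library, and per the file headers a log2 fold change, a p-value and a q-value of their own comparison. FPKM holds no read numbers, so no counting interval is given.

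Groups were taken from the sample titles, which number 2 replicates in each group that the series design calls biological. Values were transformed as log2(FPKM + 1), which understates changes of low rows, and fitted with limma 3.58.1 in R 4.3.3 (variance trend, no covariates, two-sided, Benjamini-Hochberg over all 14226 rows, threshold 0.05). The filter at a mean FPKM of 1 removed 0 rows. Prior and residual degrees of freedom were 3.17 and 2. Folds are ratios of mean FPKM, intervals are 95% limma intervals, and lists are described by counts and medians alone. Ratios within a library and levels relative to pan T cell markers were compared by exact permutation over libraries. The script was tested on simulated data whose noise followed the variance trend alone, without the spread of single rows, so that test does not bear on the calls made here. Coordinates are those of GENCODE vM21 (GRCm38), 1-based, and promoter windows are from RefSeq.

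The 8 genes and all lists were chosen with earlier results of these data known. Of each list up to 4 called genes with the smallest adjusted p are named, and for Cd8a and Cd4 the 5 rows of nearest pattern. Lck, Foxp3, Tox, Id3, Cbfb, Xcr1, Batf3, Ly75, Ncr1, Klrd1, Cd244, Klrb1c, Ly6c2, Ccr2, Cx3cr1 and Il1rl1 were added for their role after their values were seen. Some genes that this rule would name are not reported here. Where a list gene had 2 rows, the row with the higher wild-type mean was used. Alternatives covered the pseudocount, the filter, scaling, the variance trend, a replicate block, the authors' own comparison and each library left out.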

Additional observations from a re-analysis of the deposited data

How the results depend on the processing

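With a pseudocount of 0.1 or 5, no filter or one at a mean FPKM of 5, median scaling, quantile normalization, scaling without the 10 most abundant rows, and the authors' deposited comparison, each of the 8 changes kept its direction and its side of the threshold. Without the variance trend Cd4 (-0.81) and Zbtb7b (-0.97) lost their calls, and 1 gene was lower. With each library left out in turn the log2 change ran from 2.71 to 3.003 for Cd8a, 2.54 to 3.02 for Cd8b1, -0.97 to -0.65 for Cd4, -1.19 to -0.75 for Zbtb7b, 1.32 to 1.92 for Gata3 and -1.16 to -1.01 for Cd40lg. The number of genes higher ran from 0 to 2 and the number lower was 0 throughout by limma, with 3 and 3 at an unadjusted p under 0.05 in each of these fits, which leave 1 group with a single library assumed to vary like the other group. The calls over all rows fell from 1241 to between 71 and 245 in the same fits. The ratio of Cd8a to Cd8b1 ran from -0.014 to 0.176 in log2 difference, so its direction depends on wild-type replicate 2; the cause was not tested.

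The replicate numbers are shared by the groups but nothing says that they pair the samples, and the deviations of same-numbered libraries correlated at 0.176 across rows. In the fit with the replicate block Cd4 (-0.81, adjusted p = 0.0516 by limma), Zbtb7b (-0.97, 0.0504) and Gata3 (1.62, 0.0527) lost their calls, 2 genes were higher and 1 was lower. Within replicate number 1, as a block, Gata3 relative to the pan T cell markers differed by -0.007 rather than 0.46, and all other ratios and relative levels kept their direction within both numbers. Relative to Cd3e alone, all 8 differences kept their direction. The unknown depth and the 2 libraries per group limit what can be told for Cd40lg and Gata3, at 3.03 to 8.26 FPKM in the lower libraries.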

Other observations

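Other transcripts at the loci of the lineage factors have rows of their own, looked up after their values were seen. Gm16224, annotated as antisense within Runx3 (chromosome 4, 135143421 to 135144285, minus strand, touching no Runx3 exon), had 0.42 and 0.61 FPKM in the wild-type pair against 9.43 and 3.25 FPKM in vcS5. Its log2 change was 2.14 (SE 0.444), just short of the threshold (adjusted p = 0.0503 by limma, q = 0.227 in the authors' deposited table), where Runx3 itself changed by 0.42. Gm13256, antisense to Gata3 and overlapping an exon of it (chromosome 2, 9877256 to 9878869, plus strand), had 0.85 and 1.01 FPKM in wild type, with 3.02 and 1.80 FPKM in vcS5 (adjusted p = 0.131 by limma). Gm15417, antisense to Zbtb7b and overlapping an exon of it (chromosome 3, 89391850 to 89398779, plus strand), had 4.02 and 1.503 FPKM in the wild-type pair against 1.10 and 1.14 FPKM in vcS5 (adjusted p = 0.286 by limma). The library kit does not mark strand, so reads of these rows and of unspliced RNA of the host genes cannot be told apart.

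Gamma delta T cells, many of which lack both coreceptors, gave a divided picture. Of 4 measured markers, Cd163l1, a scavenger receptor, rose from 0.88 and 1.55 FPKM to 33.5 and 42.4 FPKM, and Sox13, a transcription factor, from 0.62 and 0.69 FPKM to 2.75 and 3.63 FPKM. Tcrg-C2, a receptor gamma constant segment, fell from 765 and 1999 FPKM to 23.5 and 15.2 FPKM, and Blk, a kinase also made by B cells, from 176 and 204 FPKM to 73.0 and 68.5 FPKM. Cd163l1 alone of the 4 was called in each fit that left 1 library out. The authors' deposited table gives Tcrg-C2 a q of 0.653, and reads of the alike gamma constant segments can be shared.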
